A study of Mus musculus with 14 samples.

Results

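A group of 6 genes that mark or control the formation of tendon and loose connective tissue were followed through early mouse forelimb bud development with and without *Smad4* in the mesenchyme. They were chosen by symbol, as every row whose symbol equals *Scx*, *Mkx*, *Tnmd*, *Osr1*, *Osr2* or *Tcf7l2*, which gave 6 of the 23284 genes counted. The RNA-seq covered 14 NMRI embryos, with both forelimb buds of 1 embryo pooled per replicate. Wild-type (n=3) and Smad4Δ/Δc embryos (n=4) were taken at the 30-somite stage (E10.0), and again as many of each (n=3 and n=4) at the 35-somite stage (E10.5). Embryos are named by their replicate number. Smad4Δ/Δc embryos carried 1 *Smad4* allele deleted in every cell and 1 floxed allele removed by CRE recombinase from the PrxCreT transgene, whose *Prrx1* regulatory sequence acts in limb bud mesenchyme and leaves ectoderm, vessels, blood and immigrant muscle precursors unrecombined. The labels give the wild type as *Smad4*+/+ PrxCreT/+, so that all 14 embryos carried the transgene, and the mutants differed from the wild type also by the allele deleted throughout the embryo.

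SMAD4 is the common partner through which the receptor-regulated SMAD proteins of the BMP and TGFβ pathways act on chromatin. TGFβ and FGF signals are known to promote the tendon fate in limb mesenchyme, while BMP signals promote cartilage at its expense. *Scx* encodes the basic helix-loop-helix factor Scleraxis, the earliest known marker of tendon progenitors. *Mkx* encodes the homeodomain protein Mohawk, needed later for tendon maturation, and *Tnmd* encodes Tenomodulin, a membrane protein of differentiated tendon cells. *Osr1* and *Osr2* encode odd-skipped related zinc finger factors of irregular connective tissue, and *Tcf7l2* encodes an HMG-box partner of β-catenin that marks the fibroblasts of muscle connective tissue.

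RefSeq promoter windows were at hand for *Tcf7l2*, the member with the most reads, and *Tnmd*, the member with the fewest. The 250 bases before the first start site of each are printed from the GRCm38.p6 assembly, plus strand, with capitals on GTCT or its complement AGAC and on the palindrome GGCGCC, both of them short sequences that SMAD proteins bind.
Tcf7l2, chr19:55741560-55741809: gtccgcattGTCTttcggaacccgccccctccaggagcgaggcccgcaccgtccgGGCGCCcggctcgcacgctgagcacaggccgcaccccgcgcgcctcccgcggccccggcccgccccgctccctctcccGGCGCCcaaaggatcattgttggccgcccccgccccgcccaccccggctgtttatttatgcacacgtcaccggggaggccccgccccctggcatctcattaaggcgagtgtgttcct
Tnmd, chrX:133850758-133851007: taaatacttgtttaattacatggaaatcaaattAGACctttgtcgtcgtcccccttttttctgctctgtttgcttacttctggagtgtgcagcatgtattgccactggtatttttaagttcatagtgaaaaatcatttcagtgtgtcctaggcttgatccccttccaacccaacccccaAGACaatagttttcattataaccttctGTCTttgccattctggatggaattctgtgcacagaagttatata
The printed *Tcf7l2* window held 1 GTCT and 2 GGCGCC, and the *Tnmd* window held 3 GTCT or AGAC and 0 GGCGCC. A second *Tcf7l2* window, at chr19:55895071-55895320 and not printed, held 0 of either motif. Among 32817 windows of 250 bases from the same table, 82.9% held GTCT or AGAC and 9.59% held GGCGCC, with no base shared by both motifs in the windows shown. The E-box CANNTG, the letters that Scleraxis binds, was found 0 times in either printed window and in 66.2% of all windows. These matches are letters in a sequence and were not tested for binding. No RefSeq window was at hand for *Scx*, *Osr1*, *Osr2* or *Mkx*.

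All members except *Tnmd* lie on autosomes of mm9. *Scx* (chromosome 15, 76287868 to 76289898, plus strand) sits wholly within a 10745-base intron of *Bop1* (chromosome 15, 76283426 to 76307699, minus strand), a gene of ribosome assembly, and the exons of both genes share 0 bases. *Osr2* lies on the same chromosome (35225853 to 35233059, plus strand), *Osr1* on chromosome 12 (9581248 to 9588305, plus strand), *Tcf7l2* on chromosome 19 (55816300 to 56008144, plus strand), *Mkx* on chromosome 18 (6934964 to 7004777, minus strand) and *Tnmd* on chromosome X (130385519 to 130400116, plus strand). The other 5 members overlap no annotated gene.

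Between 34066930 and 61691258 reads per embryo were counted on genes. *Smad4* was at 152.1 to 168.9 CPM (normalized read counts on a common library size) in the 6 wild-type embryos and at 32.91 to 45.94 CPM in the 8 mutants, without overlap. Mutant replicates 4 and 5 of both stages stood apart, because the ribosomal precursor *Rn45s* took 1.723% to 8.05% of their reads and 0.151% to 0.478% in the other 10 libraries. No wild-type library has these numbers, so their difference from replicates 1 to 3 cannot be told apart from variation among mutants, and member values are also given without them. All 8 limb mesenchyme markers were detected in every group. Their sum was 1631 to 1840 CPM in wild type and 1461 to 1660 CPM in mutants at E10.0, and 1826 to 1972 and 1636 to 1836 CPM at E10.5, with *Prrx1*, *Prrx2* and *Twist1* called lower in mutants at both stages, *Tbx5* lower at E10.0 and *Pdgfra* higher at E10.5. In these bulk samples, a change in the number of cells that express a gene and a change in RNA per cell cannot be told apart. The study's methods name females heterozygous for the floxed allele, a cross that can give *Smad4*+/+ embryos, and describe the wild type as such littermates of mutants. The labels instead name females homozygous for the floxed allele, a cross that would not by itself give *Smad4*+/+ embryos. Which embryos shared a litter is not given in the sources used here, and the p-values measure the spread between embryos.

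Of the 6 members, 5 passed the expression filter (at least 1 CPM in at least 3 samples) and were tested among 12393 genes. Calls came from the exact test of edgeR and needed a false discovery rate (FDR, by Benjamini-Hochberg) no higher than 0.1 together with a fold change no smaller than 1.2. At E10.5, 3 of the 5 were higher in mutants: *Osr2*, *Scx* and *Osr1*, where 2.19% of all genes tested were called higher. At E10.0, only *Osr2* of the 5 was called higher in mutants, against a background of 3.33%. From E10.0 to E10.5, 3 of the 5 rose in wild type (*Osr2*, *Scx* and *Mkx*, background 5.39%) and 5 of the 5 rose in mutants (background 10.8%). No member was called lower in any of these 4 comparisons, where 1.54% (E10.5), 3.28% (E10.0), 4.74% (stage, wild type) and 8.4% (stage, mutants) of all genes were. The 4 comparisons share groups and are not independent of each other. At E10.5 the 4 mutants lay above the 3 wild-type embryos in 5 of the 5, as they did in 6.59% of all genes tested. The stage by genotype interaction, tested with edgeR's quasi-likelihood test, called 0 of the 5, with 0.186% of all genes called, and 0 of the 5 had an unadjusted p under 0.05. DESeq2 also called 0. Between genotypes the 5 had a median log2 fold change of 0.25 for E10.0 and 0.62 for E10.5, and between stages one of 1.17 in wild type and 1.14 in mutants, beside medians of all genes tested of -0.017, -0.010, -0.0086 and -0.0050.

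**Figure D1:**
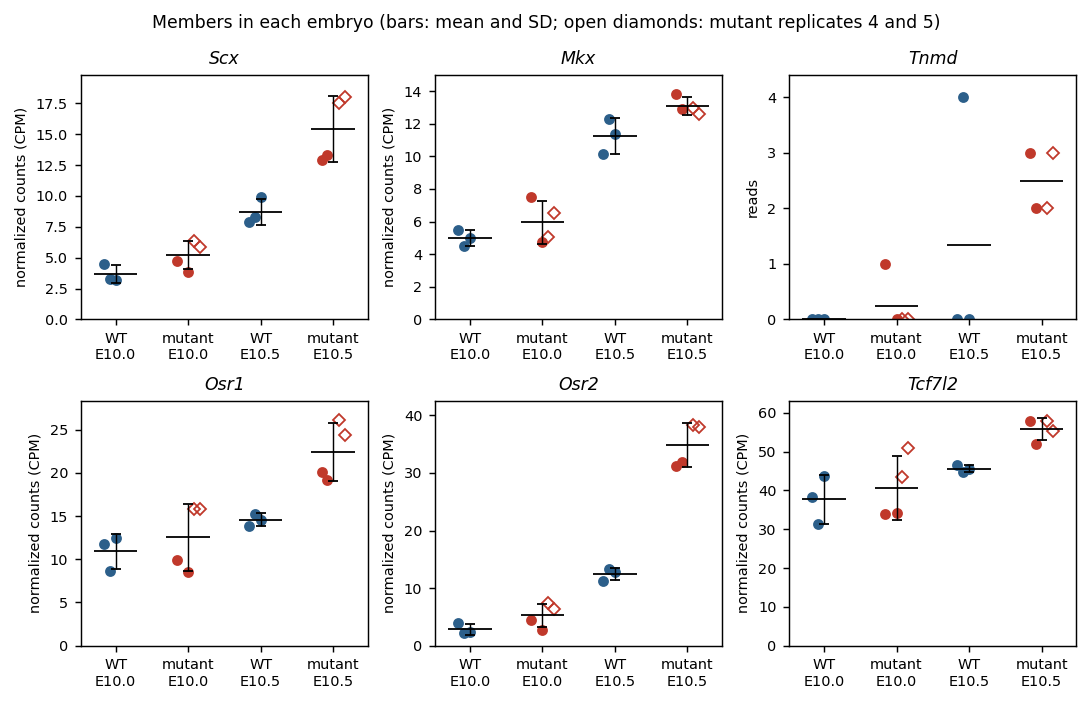
Normalized counts (CPM) of *Scx*, *Mkx*, *Osr1*, *Osr2* and *Tcf7l2*, and reads of *Tnmd*, in each of the 14 embryos by genotype and stage. Black lines give the group mean and, except for *Tnmd*, the SD; open diamonds are mutant replicates 4 and 5. At E10.5 the 4 mutants lie above the 3 wild-type embryos in all 5 CPM panels, and most widely for *Osr2*, at 31.2 to 38.3 against 11.2 to 13.3 CPM.

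*Scx*, the tendon progenitor factor, was at 4.49, 3.27 and 3.21 CPM in wild-type embryos 1, 2 and 3 at E10.0, and at 4.72, 3.82, 6.33 and 5.90 CPM in mutant embryos 1, 3, 4 and 5. The genotypes overlapped at this stage, since mutant replicate 3 lay below wild-type replicate 1. At E10.5, *Scx* was at 7.92, 8.30 and 9.88 CPM in wild-type embryos 1, 2 and 3. The mutant embryos 1, 2, 4 and 5 gave 12.9, 13.4, 17.5 and 18.0 CPM. All 4 mutants were above all 3 wild-type embryos, with replicates 4 and 5 highest. The means at E10.5 were 8.70 ± 1.04 CPM (SD, n=3) and 15.4 ± 2.68 CPM (SD, n=4), a log2 fold change of 0.83 (SE 0.159, FDR=0.000831, edgeR's exact test). At E10.0 the log2 fold change of 0.49 (SE 0.228) did not pass (FDR=0.1245, edgeR). The mean of mutant replicates 1 and 2 alone at E10.5, 13.1 CPM, was 1.51 times the wild-type mean, and that of replicates 4 and 5 was 17.8 CPM. With only replicates 1 to 3 of both genotypes, *Scx* was called at E10.5 with a log2 fold change of 0.60 (FDR=0.03178, edgeR).

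Between stages, *Scx* rose in both genotypes, and no E10.5 embryo lay below an E10.0 embryo of its genotype. The log2 fold change was 1.25 in wild type (SE 0.184, FDR=1.794e-07) and 1.58 in mutants (SE 0.207, FDR=5.3e-17, both edgeR's exact test). The 2 stage effects differed by 0.33 (SE 0.278), and the interaction did not pass (unadjusted p=0.2189, FDR=0.9498, edgeR's quasi-likelihood test).

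Because reads were counted without regard to strand, *Scx* values were set beside *Bop1*, whose intron spans *Scx*. For *Bop1*, the E10.0 means were 106.1 ± 7.51 (wild type) and 96.7 ± 16.8 CPM (mutants), and the E10.5 means were 75.8 ± 6.92 and 69.3 ± 7.55 CPM. It was not called between genotypes (log2 fold changes of -0.13 at both stages) and fell by 0.49 on the log2 scale in wild type (FDR=0.005514) and by 0.48 in mutants (FDR=0.0003426, both edgeR), while *Scx* rose. As geometric means, E10.0 embryos had 0.0341 (wild type) and 0.0533 (mutants) *Scx* reads per *Bop1* read, and E10.5 embryos had 0.115 and 0.222. In E10.5 embryos the ratio ranged from 0.0950 to 0.1414 in wild type and from 0.186 to 0.247 in mutants. The mutant ratio at E10.5 was 1.93 times that of wild type (two-sided exact permutation p=0.02857, and 0.05714 after adjustment over the 4 comparisons of this ratio). The unadjusted p is the lowest value possible with 3 against 4 embryos. Intronic *Bop1* RNA moving against its counted exonic RNA was not tested.

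*Mkx*, the Mohawk homeobox gene, changed with stage and was not called between genotypes. It was at 5.51, 4.51 and 5.01 CPM in wild-type embryos 1, 2 and 3 at E10.0, and at 7.50, 4.72, 5.05 and 6.54 CPM in mutant embryos 1, 3, 4 and 5. Wild-type embryos 1, 2 and 3 of E10.5 gave 10.1, 12.3 and 11.3 CPM. The mutant embryos 1, 2, 4 and 5 gave 13.84, 12.93, 12.98 and 12.62 CPM. The lowest mutant thus exceeded the highest wild-type embryo by a small margin at E10.5, and the genotypes overlapped at E10.0. The log2 fold change between genotypes was 0.25 at E10.0 (SE 0.177, FDR=0.4351) and 0.22 at E10.5 (SE 0.0866, FDR=0.7441, both edgeR's exact test). From E10.0 to E10.5, *Mkx* rose by a log2 fold change of 1.17 in wild type (SE 0.117, FDR=1.654e-09) and 1.14 in mutants (SE 0.159, FDR=5.589e-13, both edgeR). The difference between these 2 effects was -0.032 (SE 0.197, FDR=0.9882, edgeR's quasi-likelihood test). In *Mkx*, mutant replicates 4 and 5 were close to the other mutants, at 0.948 times their mean at E10.0 and 0.957 times at E10.5.

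*Tnmd*, the marker of differentiated tendon cells, was hardly detected. The 14 libraries held 15 *Tnmd* reads in all, and 8 libraries held 0. At E10.0, wild-type embryos 1, 2 and 3 had 0 reads each, and mutant embryos 1, 3, 4 and 5 had 1, 0, 0 and 0. At E10.5, wild-type embryos 1, 2 and 3 had 0, 4 and 0 reads, and mutant embryos 1, 2, 4 and 5 had 3, 2, 2 and 3. A count of 0 allows up to 3 reads, or 0.0486 to 0.0881 CPM over these libraries (counting error only), and all libraries but wild-type embryo 2 of E10.5 held no more reads than that. Each E10.5 mutant held more *Tnmd* reads than each E10.0 mutant (10 against 1 in all), and among tested genes 11.1% were higher without overlap in that comparison. *Tnmd* lies on chromosome X and is below the expression filter, so it was not tested.

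*Osr2* had the largest change of the 5 tested members in each of the 4 comparisons. At E10.0 it was at 3.93, 2.17 and 2.44 CPM in wild-type embryos 1, 2 and 3, and at 4.53, 2.77, 7.37 and 6.31 CPM in mutant embryos 1, 3, 4 and 5. Mutant replicate 3 lay within the wild-type range, so that the genotypes overlapped. Wild-type embryos 1, 2 and 3 of E10.5 gave 11.2, 13.3 and 12.7 CPM. The mutant embryos 1, 2, 4 and 5 gave 31.2, 31.9, 38.3 and 38.0 CPM. The genotypes lay far apart at this stage, with the lowest mutant well above the highest wild-type embryo. The means were 12.4 ± 1.07 CPM (SD, n=3) and 34.8 ± 3.83 CPM (SD, n=4), a 2.80-fold difference with a log2 fold change of 1.49 (SE 0.108, FDR=1.293e-07, edgeR's exact test). Of the 12393 genes tested, 25 had a larger log2 fold change upwards, and 24 of these were called.

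The E10.0 difference of *Osr2* was smaller and less stable. The means were 2.84 ± 0.947 CPM (SD, n=3) and 5.25 ± 2.03 CPM (SD, n=4), a log2 fold change of 0.87 (SE 0.407, FDR=0.01476, edgeR's exact test). The mean of mutant replicates 1 and 3 was 3.65 CPM, or 1.28 times that of wild type, and that of replicates 4 and 5 was 6.84 CPM. With only replicates 1 to 3 of both genotypes the log2 fold change was 0.37 and the call was lost (FDR=0.2604, edgeR). The call was also lost without wild-type replicate 2 (log2 fold change 0.71, FDR=0.1378) or wild-type replicate 3 (0.78, FDR=0.1976, both edgeR), and leaving out mutant replicate 4 or 5 kept it. At E10.5 the same restriction to replicates 1 to 3 left *Osr2* called at 1.35 (FDR=4.228e-08, edgeR).

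Between stages, *Osr2* rose 4.35-fold in wild type (log2 fold change 2.12, SE 0.271, FDR=3.778e-13) and 6.67-fold in mutants (2.74, SE 0.322, FDR=2.056e-30, both edgeR's exact test). Only 9 of all genes tested had a larger rise in mutants, and 25 in wild type. The difference between the stage effects was 0.63 on the log2 scale (SE 0.421) and did not pass (unadjusted p=0.09934, FDR=0.9498, edgeR's quasi-likelihood test).

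*Osr1*, the paralog of *Osr2*, was at 11.8, 8.64 and 12.4 CPM in wild-type embryos 1, 2 and 3 at E10.0, and at 9.95, 8.54, 15.9 and 15.9 CPM in mutant embryos 1, 3, 4 and 5. Mutant replicate 3 lay below all wild-type embryos, replicate 1 among them, and replicates 4 and 5 above them. At E10.5 it was at 13.8, 15.3 and 14.6 CPM in wild-type embryos 1, 2 and 3. The mutant embryos 1, 2, 4 and 5 gave 20.1, 19.2, 26.1 and 24.3 CPM. The genotypes did not overlap at E10.5, with means of 14.6 ± 0.742 CPM (SD, n=3) and 22.4 ± 3.32 CPM (SD, n=4). The log2 fold change was 0.62 at E10.5 (SE 0.115, FDR=0.04496) and 0.19 at E10.0 (SE 0.282, FDR=0.6544, both edgeR's exact test).

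The E10.5 call of *Osr1* lay close to the threshold. It was lost in the quasi-likelihood test (FDR=0.1796) and when any 1 of mutant replicates 4 and 5 or wild-type embryos 1, 2 and 3 was left out. Over the 7 fits that leave out 1 E10.5 embryo, the log2 fold change was 0.54 to 0.70 and the FDR up to 0.2419 (edgeR). With only replicates 1 to 3 it was kept at 0.44 (FDR=0.08841, edgeR), where at E10.0 the same restriction gave -0.23 (FDR=0.3329). From E10.0 to E10.5, *Osr1* rose in mutants by 0.84 (SE 0.254, FDR=5.734e-05) and was not called in wild type at 0.41 (SE 0.168, FDR=0.226, both edgeR's exact test), although the wild-type stages did not overlap, as for 16.6% of all genes tested. The interaction of 0.43 (SE 0.305) did not pass (FDR=0.9498, edgeR's quasi-likelihood test).

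The balance of the 2 odd-skipped genes shifted towards *Osr2*. This ratio of reads within an embryo was chosen after the values were seen, and needs no scaling between libraries. Per *Osr1* read, wild-type embryos 1, 2 and 3 had 0.334, 0.251 and 0.1965 *Osr2* reads at the earlier stage, and mutant embryos 1, 3, 4 and 5 had 0.455, 0.324, 0.465 and 0.398. At E10.5 the wild-type values were 0.814, 0.870 and 0.874, and the mutant values in replicates 1, 2, 4 and 5 were 1.55, 1.66, 1.47 and 1.56. All E10.5 mutants thus had more *Osr2* than *Osr1* reads, and all E10.5 wild-type embryos had fewer. Mutant replicate 5 lay between the lower-numbered mutants at both stages. Replicate 4 was the highest mutant at E10.0 and the lowest at E10.5, by small margins. The mutant ratio was 1.83 times that of wild type at E10.5 (two-sided exact permutation p=0.02857, adjusted 0.05714) and 1.60 times at E10.0 (exact permutation p=0.08571, adjusted 0.1). Between stages it rose 3.35-fold in wild type (exact permutation p=0.1, the smallest that 3 against 3 allow) and 3.83-fold in mutants (exact permutation p=0.02857, adjusted 0.05714). The exact permutation p of 0.02857 is the smallest possible with 3 against 4 embryos and with 4 against 4. Neither these p-values nor their adjustment cover the choice of the ratio after the values were seen.

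**Figure D2:**
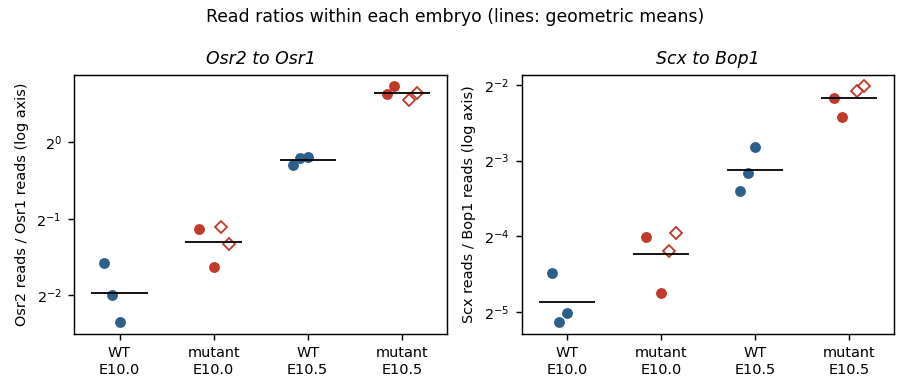
*Osr2* reads per *Osr1* read (left) and *Scx* reads per *Bop1* read (right) in each embryo, on log axes of base 2, with lines at the geometric mean of each group and open diamonds for mutant replicates 4 and 5. At E10.5 the *Osr2* to *Osr1* ratio lies at 1.47 to 1.66 in mutants and 0.814 to 0.874 in wild type.

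*Tcf7l2*, the β-catenin partner, had the smallest genotype changes but for *Mkx* at E10.5, and its groups overlapped at E10.0. Wild-type replicates 1, 2 and 3 had 38.2, 31.2 and 43.6 CPM at E10.0, and mutant embryos 1, 3, 4 and 5 had 33.9, 34.1, 43.5 and 50.8 CPM. Wild-type embryos 1, 2 and 3 of E10.5 gave 46.5, 44.8 and 45.5 CPM. The mutant embryos 1, 2, 4 and 5 gave 58.0, 51.8, 57.9 and 55.4 CPM. Each E10.5 mutant exceeded each wild-type embryo, and replicates 4 and 5 were 1.03 times replicates 1 and 2. The log2 fold change at E10.5 was 0.29 (SE 0.0413), with an unadjusted p=0.02784 that did not pass over all genes (FDR=0.3738, edgeR's exact test). When the 2 E10.5 groups were fitted apart from the others, the FDR was 0.02782 (edgeR). At E10.0 the log2 fold change was 0.11 (SE 0.2002, FDR=0.7393, edgeR). *Tcf7l2* rose between stages in mutants by 0.46 (SE 0.148, FDR=0.001881) and was not called in wild type at 0.28 (SE 0.141, FDR=0.2354, both edgeR). The wild-type stages still did not overlap, as for 16.6% of all genes tested. The wild-type rise was called when the groups were fitted apart and with only replicates 1 to 3. The interaction of 0.19 (SE 0.204) did not pass (FDR=0.9566, edgeR's quasi-likelihood test). Counts were made per gene, so the isoforms of *Tcf7l2* were not separated.

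**Figure D3:**
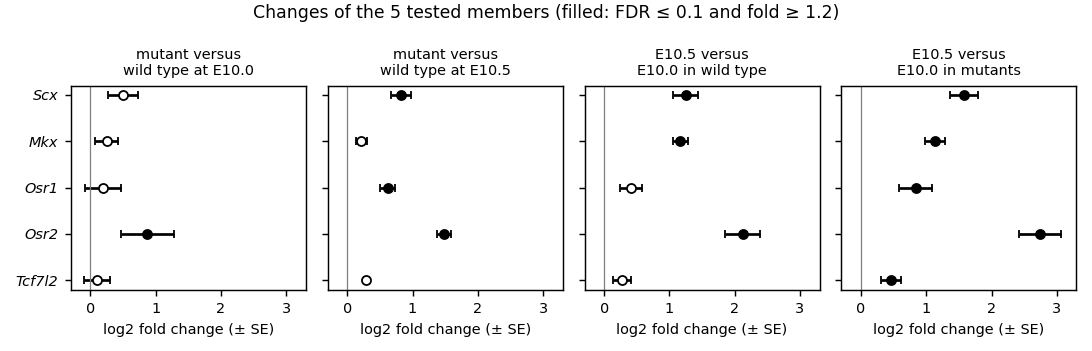
Log2 fold changes of the 5 tested members with standard errors of the mean difference, in 4 comparisons that share groups pairwise; filled points are calls. *Osr2* has the largest change in each panel, from 0.87 to 2.74, and no point lies below 0.

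**Figure D4:**
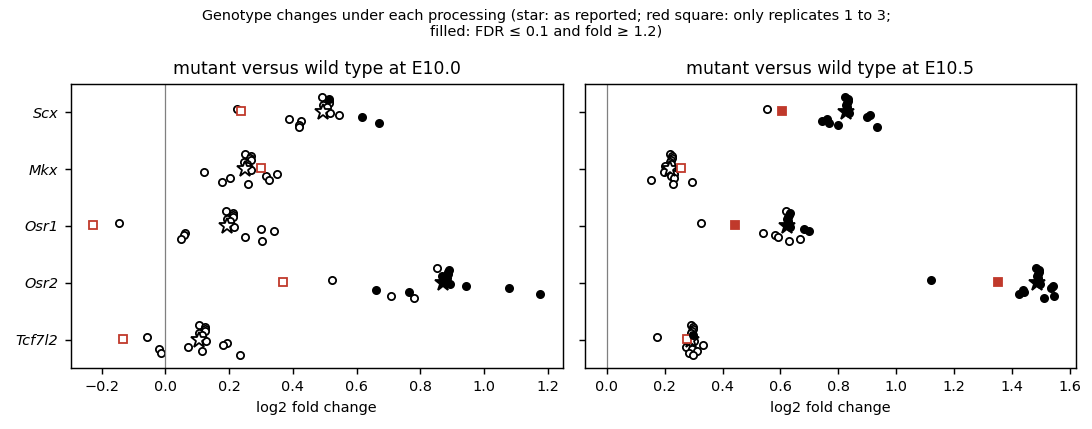
Log2 fold changes of the 5 tested members between genotypes at E10.0 (left) and E10.5 (right) under each processing, with stars for the reported value, red squares for replicates 1 to 3 only, circles for the other alternatives and left-out embryos of that stage, and filled symbols for calls. The *Osr2* values at E10.5 are all filled and lie between 1.12 and 1.55, whereas at E10.0 they spread from 0.37 to 1.18.

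Per kilobase of exon, the order of the members' mean levels was the same in both genotypes at E10.0 and differed at E10.5. In wild type at E10.0, the level was 5.44 ± 1.01 CPM per kilobase for *Osr1*, 4.31 ± 0.711 for *Tcf7l2*, 3.22 ± 0.637 for *Scx*, 1.65 ± 0.55 for *Osr2* and 1.57 ± 0.156 for *Mkx* (SD, n=3). Neighbours in this order lay within the sum of their SDs, except *Scx* above *Osr2*. In mutants at E10.0 the same order held, with 6.25 ± 1.92 CPM per kilobase for *Osr1*, 4.64 ± 0.936 for *Tcf7l2*, 4.57 ± 1.003 for *Scx*, 3.04 ± 1.18 for *Osr2* and 1.86 ± 0.406 for *Mkx* (SD, n=4), each neighbour within the sum of the SDs. In wild type at E10.5, *Scx*, *Osr1* and *Osr2* were at 7.66 ± 0.916, 7.24 ± 0.369 and 7.21 ± 0.62 CPM per kilobase, which did not differ beyond their spread, followed by *Tcf7l2* at 5.22 ± 0.0998 and *Mkx* at 3.52 ± 0.343. In mutants at E10.5, *Osr2* led with 20.2 ± 2.23 CPM per kilobase, followed by *Scx* at 13.6 ± 2.36, *Osr1* at 11.2 ± 1.65, *Tcf7l2* at 6.38 ± 0.332 and *Mkx* at 4.09 ± 0.163 (SD, n=4), where *Scx* and *Osr1* lay within their spread. Exon lengths were those of all annotated transcripts together, which lowers the value of *Tcf7l2* with its 8739 exon bases most.

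Across the 14 embryos, the gene most like *Scx* among all genes tested was *Osr2*, and the reverse, with Pearson's r=0.992 of log2(CPM + 1). *Nfatc2* (0.986 with *Scx* and 0.985 with *Osr2*) and *Lrig3* (0.981 and 0.986) followed for both. *Osr1* was most like *Tgfb3* (0.984), *Dnm1* (0.967) and *Vash1* (0.961), *Mkx* most like *Meox2* (0.979), *Hoxd12* (0.978) and *Phyh* (0.976), and *Tcf7l2* most like *Sned1* (0.957), *Cxcl12* (0.951) and *Osr1* (0.951). Among member pairs, r was lowest between *Mkx* and *Tcf7l2*, at 0.758. These correlations compare genes measured in the same 14 libraries, 1 per embryo, which fall into 4 groups, so that they hold the differences between the groups.

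Related genes, described by counts alone, were called in both directions. Of 17 other tendon genes tested, 6 were higher and 1 was lower in mutants at E10.0 (median log2 fold change 0.16), and 3 were higher and 1 was lower at E10.5 (median 0.0059), beside medians of all genes of -0.017 and -0.010. Among the genes called higher at E10.5 were the proteoglycan gene *Lum* (6.56 ± 1.95 CPM in wild type, 18.3 ± 2.04 in mutants, log2 fold change 1.48), the zinc finger gene *Egr1* (0.93) and the collagen gene *Col12a1* (0.92). Among those called at E10.0, the largest changes were those of the proteoglycan gene *Dcn* (0.123 ± 0.0698 and 0.711 ± 0.22 CPM, log2 fold change 2.47), *Tnc* (1.68, groups overlapping) and *Thbs4* (1.46). *Thbs2* was lower in mutants at both stages (-1.01 and -0.92, chosen by its count of 1).

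Of 13 other connective tissue genes, 0 were higher and 1 (*Tbx5*, -0.31) was lower in mutants at E10.0, and 3 were higher and 1 lower at E10.5. The largest changes among those called at E10.5 were *Tbx4* (0.79), *Tbx3* (-0.56) and the chemokine gene *Cxcl12* (0.49), which was also among the genes most like *Tcf7l2*. Of 8 bHLH genes related to *Scx* or its partners, *Tcf4* (0.40 and 0.48) and *Tcf15* (0.52 and 0.54) were higher and *Twist1* (-0.34 and -0.36) was lower in mutants at both stages, in the order E10.0 and then E10.5. Of 11 TCF/LEF genes and partners, 0 were called between genotypes by edgeR's exact test at either stage. Between stages, 3 of them fell in wild type (*Tcf7*, *Lef1* and *Sp5*) and 2 in mutants (*Tcf7* and *Lef1*), named after their values were seen, while *Tcf7l2* did not fall. *Tcf7* went from 103.9 to 65.3 CPM in wild type. Of 4 *Irx* genes tested, homeobox relatives of *Mkx*, 0 were called between genotypes.

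Among signaling genes, most calls in the BMP list were lower in mutants. Of its 11 genes, 6 were lower and 1 was higher at E10.0, and 6 were lower and 2 were higher at E10.5 (medians -0.44 and -0.55). The BMP targets *Id1* (-1.24 and -1.33), *Id3* (-1.24 and -1.38), *Msx2* (-1.66 at E10.5) and the BMP antagonist gene *Grem1* (-1.22 at E10.0) were among those with the largest changes. Of 14 TGFβ genes, only *Smad7* was called at E10.0 (-0.51). At E10.5 the receptor genes *Tgfbr2* (0.43) and *Tgfbr3* (0.47) were higher and *Smad7* (-0.46) was lower. The ligand gene *Tgfb3*, the gene most like *Osr1*, had a log2 fold change of 0.40 at E10.5 that did not pass (FDR=0.1587, edgeR). Of 12 FGF genes, 0 were called at E10.0, and 3 were higher (with *Fgf9* at 0.97 and *Spry2* at 0.49) and 1 was lower (*Fgfr2*, -0.49) at E10.5. Of 6 cartilage progenitor genes tested, *Gdf5* (-1.29) and *Runx2* (-0.69) were lower at E10.0 and *Runx2* (-1.17) was lower at E10.5.

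**Figure D5:**
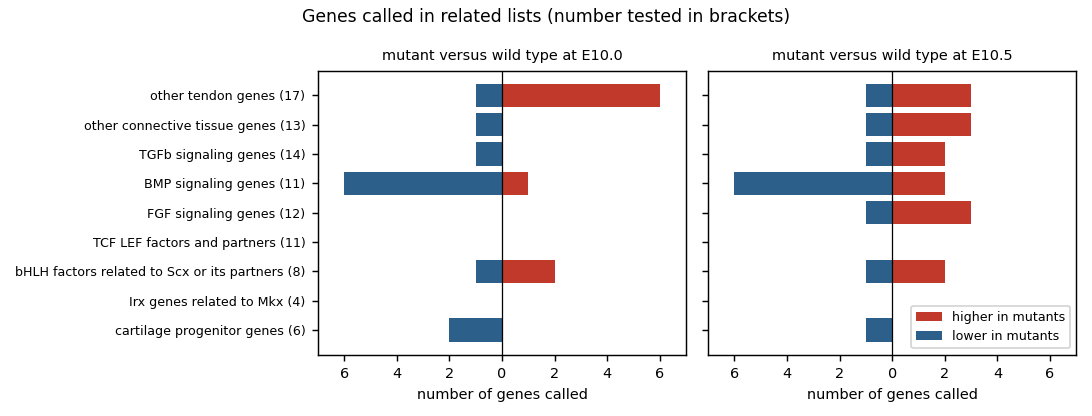
Number of genes called higher (red, to the right) and lower (blue, to the left) in mutants than in wild type, for 9 related lists at both stages, with the number tested in brackets. The BMP list has 6 lower genes at each stage, and the list of other tendon genes has 6 higher genes at the earlier stage and 3 at the later.

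Markers of other cells that the dissection could hold were measured beside the members. The summed level of 8 body wall and mesothelium markers was 58.02 to 76.47 CPM in wild type and 86.32 to 95.08 CPM in mutants at E10.0. At E10.5 it was 91.58 to 113.0 and 127.8 to 147.2 CPM. This sum was thus higher in mutants without overlap at both stages. Every tested member was also higher without overlap at E10.5, as were 6.59% of all genes tested. Within that list, *Tbx18* made up most of the sum and was called higher at E10.5 (89.5 ± 10.4 and 129.3 ± 9.12 CPM), whereas the mesothelial genes *Wt1* and *Upk3b* were called higher in mutants at E10.0 (log2 fold changes 2.38 and 3.35) and lower at E10.5 (-1.42 and -1.76). The remaining tested markers *Krt19* (-0.43), *Lrrn4* (-0.23) and *Upk1b* (-0.035) were below wild type at E10.5 and not called. Only *Tbx18* of the tested markers was thus higher at E10.5. None of the list was at 0 in a whole group. The sum of the 6 endothelial markers was also higher in mutants at E10.5 (291.1 to 335.3 against 273.0 to 289.6 CPM), with 0 of the 6 called by edgeR's exact test and *Tek* and *Emcn* slightly below wild type, and the sum of the 7 somite and sclerotome markers was lower (26.2 to 29.2 against 41.8 to 48.8 CPM), with *Nkx3-2* at 0 in all E10.0 libraries. That lower sum came mostly from *Pax1* (17.02 ± 2.42 and 2.79 ± 0.502 CPM), whereas *Tcf15* of the same list was called higher. The sums of the other 6 of the 9 lists overlapped between genotypes at E10.5, and 8 of the 9 overlapped at E10.0. Single genes of overlapping lists were still called, in both directions. Of the muscle precursor markers, *Myog* was called higher in mutants at E10.0 (0.206 ± 0.0913 and 3.67 ± 1.49 CPM) and lower at E10.5 (5.09 ± 2.41 and 0.687 ± 0.708 CPM). *Myf5* was called higher at E10.0 (log2 fold change 1.26). The other muscle precursor markers tested were not called at either stage. In the body wall sum, mutant replicates 4 and 5 at E10.5 were lowest of the 4 mutants, at 131.8 and 127.8 CPM. At E10.0 they were at 90.7 and 92.9 CPM, between replicate 3 (86.3 CPM) and replicate 1 (95.1 CPM). *Scx*, *Osr1* and *Osr2* were highest in replicates 4 and 5 at both stages. The part of all these cells in the member results was not tested.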

How the data were processed

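Per the labels and the study's methods, polyA libraries were unstranded and sequenced as single reads. The authors aligned them with TopHat2 2.0.13 to mm9 and refGene transcripts, kept uniquely mapped reads and deposited raw counts per gene symbol, made with htseq-count without strand. Reads on no gene (6.18% to 9.86%) and ambiguous reads (1.49% to 1.75%) stayed out, so that total depth and dropped reads bear on low genes such as *Tnmd* most.

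From these counts, the 1041 symbols of chromosomes X, Y and M were dropped, and 12393 genes reaching 1 CPM or more in 3 or more samples entered the tests. edgeR 4.0.16 (R 4.3.3) normalized by TMM, estimated tagwise dispersions (prior.df of 10) and compared groups with its exact test, as the study did. Dispersions were taken from all 14 samples together, which the study does not state. The interaction was tested by quasi-likelihood. Standard errors came from replicate variances of log2 CPM with a prior count of 0.5. Ratios were compared by exact permutation tests (scipy 1.17.1). The fits were tested on simulated data. Alternatives were the quasi-likelihood test, DESeq2 1.42.0, RLE factors, no filter, all chromosomes, separate fits, a replicate block, replicates 1 to 3, removal of *Rn45s* and each sample left out.

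The members and lists were chosen with earlier results of these data known. Named genes were the 6 members, *Smad4*, *Bop1*, up to 3 called genes per list and stage with the largest change, and the 3 genes most correlated with each member. Deviations of same-numbered mutants correlated across stages at 0.208 to 0.5602 in 3 pairs. Those of differently numbered mutants correlated at -0.489 to 0.284 in 13 pairs, with E10.0 replicate 4 and E10.5 replicate 5 at 0.284. The ranges overlap and replicates 4 and 5 share the *Rn45s* difference, so these values do not show that same-numbered mutants are pairs. A replicate block changed no member call between the mutant stages. None of the 18 pairs of libraries within groups agreed within sampling noise. Positions came from the mm9 GENCODE annotation.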

Additional observations from a re-analysis of the deposited data

Results flagged for a closer look

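One value was flagged by the distance of a single embryo from its group. Among the 4 E10.0 mutants, the gap between replicate 1 and the nearest other embryo in *Tnmd* made up the whole range (ratio 1.0). It rests on 1 read in replicate 1 and 0 reads in the others, and any group of 4 with a single read gives this ratio. No other member value in the groups of 4 mutants was flagged, and the groups of 3 wild-type embryos were not examined in this way.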

How the results depend on the processing

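Of the genotype results, *Osr2* and *Scx* at E10.5 were the most stable, and every stage call of the members was kept under all alternatives and left-out embryos run. *Osr2* at E10.5 was called in 9 of 9 alternatives (log2 fold change 1.12 or more) and in 7 of 7 fits without 1 embryo of that stage, and *Scx* in 8 of 9 and 7 of 7. *Osr2* at E10.0 was called in 6 of 9 and 5 of 7. The number of members called at E10.0 was 0 by the quasi-likelihood test, 0 with only replicates 1 to 3 and 2 by DESeq2, where *Scx* joined (FDR=0.08211), and 0 to 2 without 1 library. At E10.5 it was 2 to 3 without 1 library. In wild type between stages it was 5 when the groups were fitted apart and 5 with only replicates 1 to 3, where *Osr1* and *Tcf7l2* joined. Directions that were never called turned with the setting: at E10.0 with only replicates 1 to 3, *Osr1* was at -0.23 and *Tcf7l2* at -0.13. *Tcf7l2* at E10.0 was -0.021 without mutant replicate 5 and -0.013 without wild-type replicate 2, and up to 0.23 without another embryo. The interaction of *Mkx* was 0.10 and 0.013 without E10.0 mutant replicates 1 and 5, and 0.038 and 0.036 without wild-type replicate 2 of E10.0 and of E10.5. The cause was not tested.

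With a replicate block in the quasi-likelihood fit, 0 members were called between genotypes at E10.0 and 1 (*Osr2*, log2 fold change 1.12, FDR=0.02016) at E10.5, where *Scx* had 0.55 (FDR=0.1051) and *Osr1* 0.33 (FDR=0.3154, all edgeR). *Osr1* and *Tcf7l2* at E10.0 turned to -0.15 and -0.059. By its construction the block compares genotypes only through numbers both hold. Same-numbered embryos of the 2 genotypes correlated at -0.121 and 0.1425 at E10.0 and at -0.203 and -0.150 at E10.5. Those of the wild-type stages correlated at -0.226 to -0.0482. So few values do not show that the numbers pair embryos, and they cannot exclude it.

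Over all genes, 819 were called at E10.0, against 1961 with the block, 2018 with replicates 1 to 3 and 254 to 1062 without 1 library. Higher and lower calls numbered 413 and 406, and 519 and 313 in the fit without *Rn45s*, 625 and 1336 with the block and 765 and 1253 with replicates 1 to 3. At E10.5, 462 were called, against 280 with the block and 286 to 516 without 1 library. For stage in wild type, 1256 were called, against 1932 when fitted apart and 484 to 1515 without 1 library. The interaction called 23, against 87 by DESeq2, 39 without the filter, 6 with replicates 1 to 3 and 7 to 34 without 1 library. The depth left *Tnmd* with 0 to 4 reads per library.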
